A study of Mus musculus with 12 samples.

Results

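Transcript levels of 8 genes that pattern or carry the transient outward potassium current of the heart were followed in mice with a cardiac deletion of *Gata4* or *Gata6*. They were *Irx3*, *Irx4* and *Irx5* of the Iroquois homeobox family, the hairy-related repressors *Hey1* and *Hey2*, and *Kcnd2*, *Kcnd3* and *Kcnip2*, which encode channel subunits. The genes were taken by symbol from the 19938 genes to which a probeset (a set of short probes combined into 1 value) of the array could be assigned alone, and each of the 8 had exactly 1 such probeset, so that 8 of 35557 probesets are described. RNA of 12 hearts, 1 mouse and 1 Affymetrix mouse gene ST array each, had been measured at 8 weeks of age. The groups were 2 cre hearts (wild-type *Gata4* and *Gata6* with the cre transgene), 2 *Gata4* floxed hearts and 2 *Gata6* floxed hearts, both without cre, 3 *Gata4*-deleted hearts (floxed *Gata4* with cre) and 3 *Gata6*-deleted hearts (floxed *Gata6* with cre). The labels give the hearts of each group as biological replicates. Cre was driven by a cardiac myosin heavy chain promoter, named as α in the labels and as β in the study's methods, and the labels place the deletion late in heart development, which these arrays do not measure. RNA came from the homogenized heart with all its cell types, so that fewer cells of a type and less RNA per cell cannot be told apart.

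GATA-4 and GATA-6 are zinc finger transcription factors of cardiomyocytes. The transient outward current ends the first phase of the ventricular action potential, and in the mouse it is larger near the epicardium than near the endocardium. Kv4.2, encoded by *Kcnd2*, and Kv4.3, encoded by *Kcnd3*, form its pore, and KChIP2, encoded by *Kcnip2*, is the accessory subunit that brings these channels to the membrane. *Irx5* runs in the opposite gradient, higher near the endocardium, and represses *Kcnd2* in the mouse ventricle. *Irx3* is known for the ventricular conduction system and *Irx4* for ventricular identity. *Hey1* and *Hey2* are repressors downstream of Notch, *Hey1* mainly of the atria and *Hey2* of the compact layer of the ventricle, where it restrains atrial genes.

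RefSeq (GRCm38.p6) gave the 250 bases before the transcription start for 6 of the 8 genes. The windows of the 4 genes among them whose hearts of 1 deletion all lay below the 9 other hearts, and which held a motif searched here, are shown with CCAAT boxes (CCAAT or its complement ATTGG) and GC boxes (GGGCGG or its complement CCGCCC) in capitals. Both strands were searched and no matches overlapped. They are *Kcnip2* (chr19:45816064-45816313, minus strand), *Irx4* (chr13:73260247-73260496, plus strand), *Hey2* (chr10:30842784-30843033, minus strand) and *Kcnd2* (chr6:21215096-21215345, plus strand), each read 5′ to 3′ on the strand of the gene.
Kcnip2: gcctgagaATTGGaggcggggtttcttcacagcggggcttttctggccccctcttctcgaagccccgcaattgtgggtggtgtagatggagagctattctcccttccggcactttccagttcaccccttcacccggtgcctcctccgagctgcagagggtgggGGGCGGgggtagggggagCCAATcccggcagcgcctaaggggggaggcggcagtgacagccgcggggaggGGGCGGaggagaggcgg
Irx4: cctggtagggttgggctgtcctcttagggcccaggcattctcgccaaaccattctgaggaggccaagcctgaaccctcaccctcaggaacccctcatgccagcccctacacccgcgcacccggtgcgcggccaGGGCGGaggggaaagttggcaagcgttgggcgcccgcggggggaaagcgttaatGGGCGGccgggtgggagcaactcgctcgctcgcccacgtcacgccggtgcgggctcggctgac
Hey2: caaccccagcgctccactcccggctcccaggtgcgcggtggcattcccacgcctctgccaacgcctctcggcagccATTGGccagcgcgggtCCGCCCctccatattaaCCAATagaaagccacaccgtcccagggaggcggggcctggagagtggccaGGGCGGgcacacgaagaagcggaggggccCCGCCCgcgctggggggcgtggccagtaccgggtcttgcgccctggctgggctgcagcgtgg
Kcnd2: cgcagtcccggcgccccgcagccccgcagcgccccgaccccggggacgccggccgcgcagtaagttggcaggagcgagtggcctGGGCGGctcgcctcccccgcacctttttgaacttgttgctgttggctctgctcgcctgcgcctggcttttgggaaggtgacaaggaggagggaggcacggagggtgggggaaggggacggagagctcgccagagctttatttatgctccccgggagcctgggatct
The *Kcnip2* window held 2 CCAAT boxes, which start 242 and 69 bases before the start site, and 2 GC boxes, at 87 and 17 bases. The *Hey2* window held 2 CCAAT boxes and 3 GC boxes, the *Irx4* window 2 GC boxes and the *Kcnd2* window 1. Among all 32851 windows of this length, 33.8% held a CCAAT box and 32.7% a GC box. The letters GATA were in 53.6% of all windows and in 0 of these 6, and the Iroquois-type letters ACANNTGT were in 6.31% of all windows and in 0 of these 6. The windows of *Irx3* and *Kcnd3* held none of the motifs.

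Signals are log2 values as deposited, on which a difference of 1 is a change by a factor of 2. Array medians lay between 5.61 and 5.66 and arrays correlated at 0.979 to 0.991 over all probesets. The 10 cardiomyocyte markers, among them *Myh6* and *Ryr2*, stood at or above the 99.4th percentile of all probesets. The targeted genes were not lower by their whole-transcript probesets, with a log2 change of -0.05 (SE 0.08, adjusted p = 0.907) for *Gata4* in *Gata4*-deleted hearts and of 0.23 (SE 0.12, adjusted p = 0.999) for *Gata6* in *Gata6*-deleted hearts, each against its own floxed line. Such probesets do not tell whether a floxed exon is lost. By the study's quantitative PCR of heart RNA, *Gata4* was well below its floxed control in *Gata4*-deleted hearts, and *Gata6* was not listed there. Of the 8 genes, *Kcnip2* had the highest mean, at the 94.5th percentile of probesets, and *Hey2* the lowest, at the 56.2nd percentile. All comparisons came from 1 limma model of the 12 arrays, and a gene is said to have passed where its p, adjusted by Benjamini and Hochberg's method over every probeset of the array, was under 0.05.

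*Gata4*-deleted hearts had the lowest levels of all 3 Iroquois factors and of *Kcnip2*. All 3 *Gata4*-deleted hearts lay below all 9 other hearts in *Irx3*, *Irx4*, *Irx5* and *Kcnip2*, 4 of the 8 genes, against 1.85% of all probesets. In *Gata6*-deleted hearts, it was *Hey2* and *Kcnd2* for which all 3 hearts lay below the 9 others, 2 of the 8 genes, against 0.72% of all probesets. The 8 genes were chosen with earlier results of these data known. Such shares, here and below, therefore describe the 8 genes and do not test an excess over all probesets. The plots of every heart show both sets of genes.

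**Figure D1:**
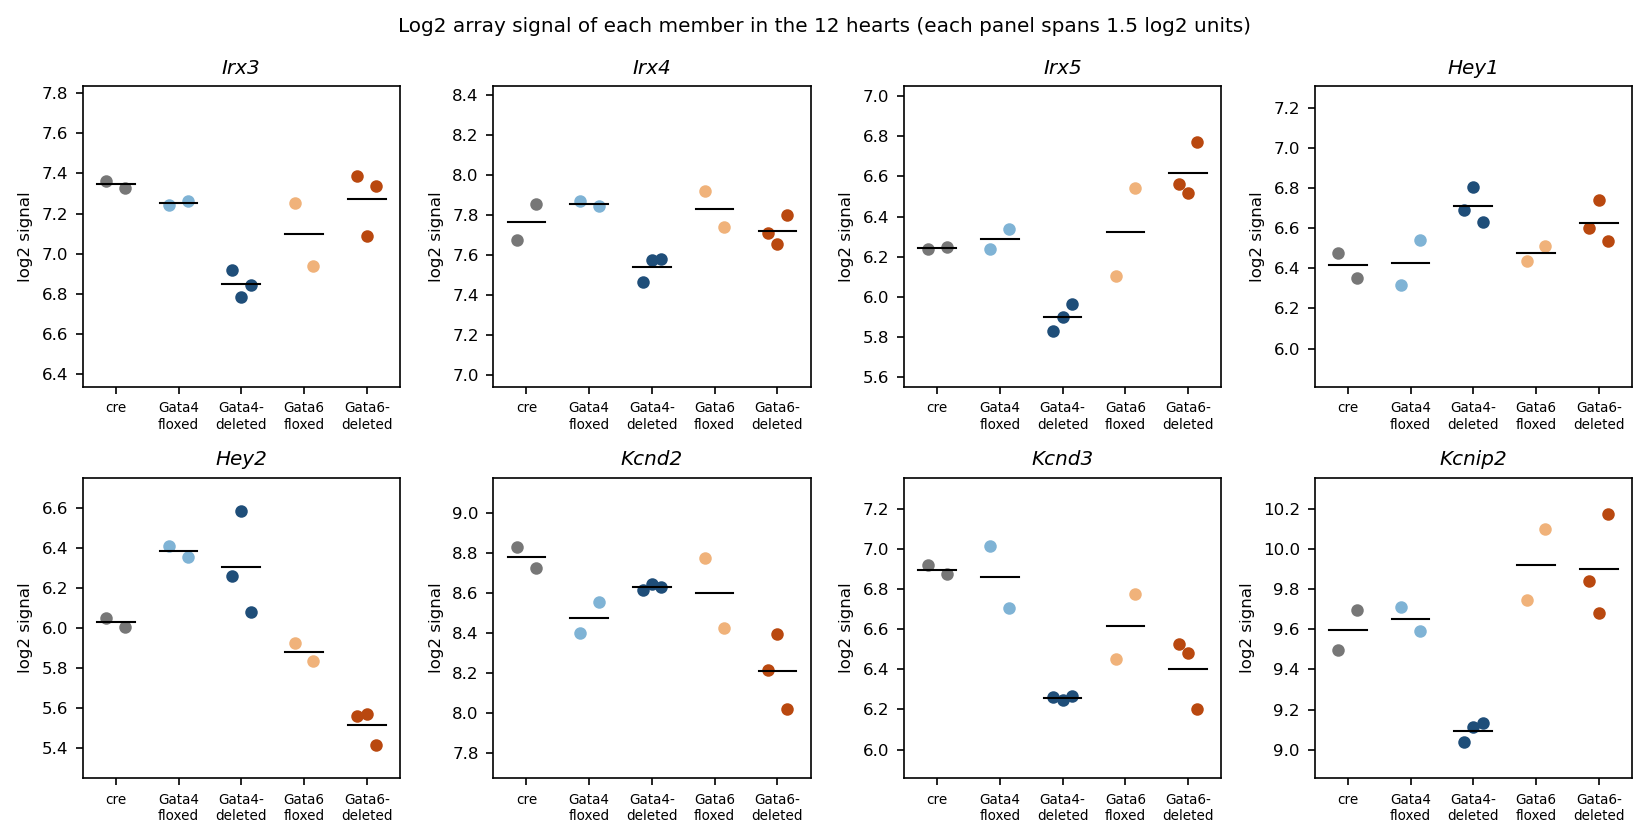
Log2 signal of the 8 genes (1 panel each, every vertical axis spanning 1.5 log2 units) in each heart, by group, with points for hearts and a line at the group mean. The *Gata4*-deleted hearts sit lowest for *Irx3*, *Irx4*, *Irx5* and *Kcnip2*, and the *Gata6*-deleted hearts lowest for *Hey2* and *Kcnd2*.

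*Irx5* read 5.83, 5.90 and 5.97 in the *Gata4*-deleted hearts and 6.24 and 6.34 in the *Gata4* floxed hearts. It read 6.56, 6.52 and 6.77 in the *Gata6*-deleted hearts, 6.10 and 6.54 in the *Gata6* floxed hearts, and 6.24 and 6.25 in the cre hearts. The *Gata4*-deleted hearts were therefore low and apart from every other heart, whereas the *Gata6*-deleted hearts overlapped with their floxed line through 1 *Gata6* floxed heart. The cre, *Gata4* floxed and *Gata6* floxed means (6.24, 6.29 and 6.32) differed by less than the spread of the *Gata6* floxed pair (SD 0.31, n = 2).

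*Irx3* read 6.92, 6.78 and 6.84 in the *Gata4*-deleted hearts, against 7.24 and 7.26 in the *Gata4* floxed hearts and 7.36 and 7.33 in the cre hearts. In the other line it read 7.39, 7.09 and 7.34 in the *Gata6*-deleted hearts and 7.25 and 6.94 in the *Gata6* floxed hearts. The *Gata6*-deleted hearts thus overlapped with their floxed line, and the lowest *Gata6* floxed heart came close to the highest *Gata4*-deleted heart. *Irx4* read 7.47, 7.57 and 7.58 in the *Gata4*-deleted hearts and 7.87 and 7.85 in the *Gata4* floxed hearts. The remaining hearts of *Irx4* lay between 7.65 and 7.92, and of these groups only the *Gata4* floxed and *Gata6*-deleted hearts did not overlap.

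*Hey2*, the Notch effector of the compact myocardium, read 5.56, 5.57 and 5.42 in the *Gata6*-deleted hearts and 5.92 and 5.84 in the *Gata6* floxed hearts. It read 6.05 and 6.01 in the cre hearts, 6.41 and 6.36 in the *Gata4* floxed hearts, and 6.26, 6.58 and 6.08 in the *Gata4*-deleted hearts. The groups of *Hey2* thus followed each other from *Gata6*-deleted through *Gata6* floxed and cre hearts to both *Gata4* groups, and only the last 2 groups overlapped. The floxed lines, which carry no deletion, did not overlap in *Hey2*. *Hey1* spanned only 0.49 log2 units over the 12 hearts. It read 6.69, 6.80 and 6.63 in the *Gata4*-deleted hearts, all above the 6 cre and floxed hearts, which lay between 6.32 and 6.54, and 6.60, 6.74 and 6.54 in the *Gata6*-deleted hearts.

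*Kcnip2* read 9.04, 9.11 and 9.13 in the *Gata4*-deleted hearts, 9.71 and 9.59 in the *Gata4* floxed hearts and 9.50 and 9.69 in the cre hearts. In the *Gata6*-deleted hearts it read 9.84, 9.68 and 10.17 and in the *Gata6* floxed hearts 9.75 and 10.10. The *Gata6* groups overlapped completely and held the highest hearts, and the *Gata4*-deleted hearts lay clearly below all others. *Kcnd3*, the other pore subunit, read 6.26, 6.24 and 6.27 in the *Gata4*-deleted hearts and 7.01 and 6.71 in the *Gata4* floxed hearts. Its lowest single value was 6.20, in 1 *Gata6*-deleted heart, so that *Kcnd3* was low in *Gata4*-deleted hearts with no separation from the *Gata6*-deleted hearts, the others of which read 6.53 and 6.48.

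*Kcnd2*, which encodes the main pore subunit of the mouse ventricle, read 8.21, 8.40 and 8.02 in the *Gata6*-deleted hearts and 8.77 and 8.43 in the *Gata6* floxed hearts. It read 8.40 and 8.55 in the *Gata4* floxed hearts, 8.61, 8.64 and 8.63 in the *Gata4*-deleted hearts and 8.83 and 8.73 in the cre hearts. The highest *Gata6*-deleted heart (8.395) lay only just below the lowest *Gata4* floxed heart (8.399). *Kcnd2* therefore did not share the pattern of *Kcnip2*, its accessory subunit, in *Gata4*-deleted hearts.

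**Figure D2:**
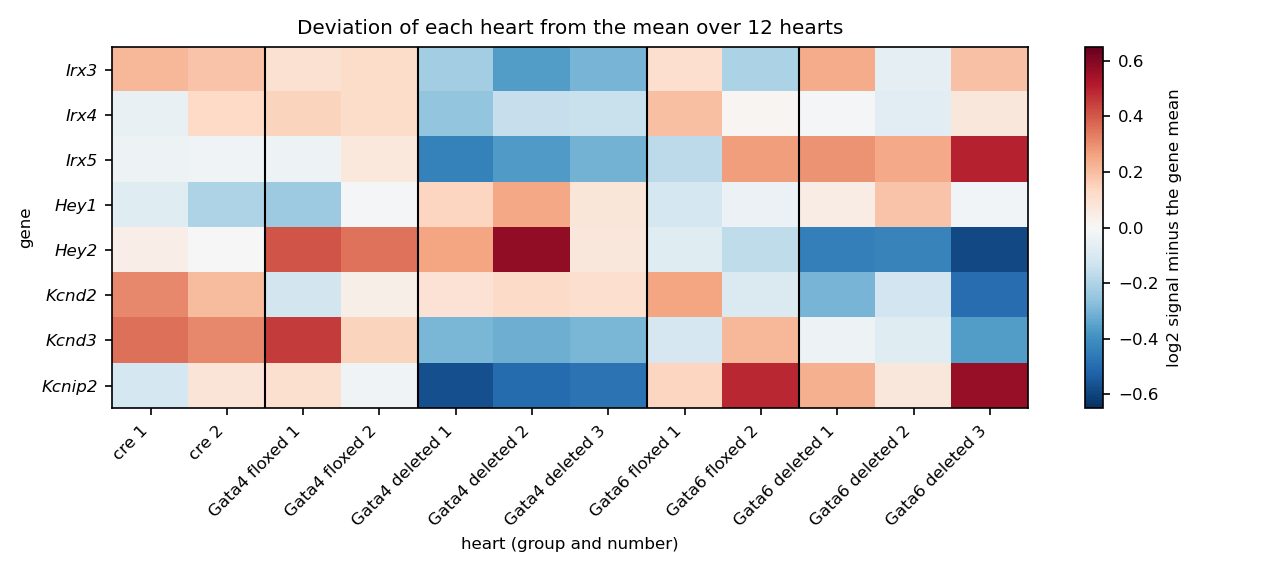
Each gene (rows) in each heart (columns) as log2 signal minus the mean of that gene over the 12 hearts, blue below and red above it, with black lines between groups. *Irx3*, *Irx4*, *Irx5* and *Kcnip2* are blue in all 3 *Gata4*-deleted hearts, where *Kcnd2* is not, and *Hey2* and *Kcnd2* are blue in all 3 *Gata6*-deleted hearts.

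The first comparison asked what cardiac deletion of *Gata4* did against the *Gata4* floxed line. The differences in log2 were -0.40 for *Irx3* (SE 0.11, adjusted p = 0.266), -0.32 for *Irx4* (SE 0.09, adjusted p = 0.260) and -0.39 for *Irx5* (SE 0.13, adjusted p = 0.343). The channel subunits gave -0.60 for *Kcnd3* (SE 0.13, adjusted p = 0.147), -0.56 for *Kcnip2* (SE 0.15, adjusted p = 0.239) and 0.15 for *Kcnd2* (SE 0.13, adjusted p = 0.797). In linear terms *Kcnd3* read 1.52-fold lower and *Kcnip2* 1.47-fold lower, whereas the interval of *Kcnd2* ran from -0.14 to 0.44 log2 units. *Hey1* read 0.28 higher (adjusted p = 0.376) and *Hey2* gave -0.08 with an interval from -0.37 to 0.21 (adjusted p = 0.913).

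None of the 8 genes passed in that comparison, in which 0.183% of all probesets passed. At an unadjusted p under 0.05 there were 6 of the 8 genes, against 9.42% of all probesets, and the 3 deleted hearts did not overlap with the 2 floxed hearts in 7 of the 8, against 25.7% of all probesets. The median of the 8 differences was -0.35, against 0.003 over all probesets. When probesets dim in every group (group means under 6) were left out, *Kcnd3* passed (adjusted p = 0.0498).

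The *Gata4* floxed hearts also stood apart in clock genes, which bears on this comparison because *Kcnip2* is known in the mouse heart to follow the circadian clock through the Krüppel-like factor KLF15. Of 16 clock genes measured, 4 were higher and 2 were lower with *Gata4* deletion than in the *Gata4* floxed line, with 1.67 for *Ciart* (adjusted p = 0.00323) and -1.37 for *Arntl* (adjusted p = 0.00751). *Per1* read 6.71 and 6.86 in the *Gata4* floxed hearts and between 7.74 and 8.35 in all other hearts, *Gata4*-deleted hearts included. The mean log2 signal of these genes was 7.79 to 7.84 in the *Gata4* floxed hearts and 8.04 to 8.15 in the others. *Klf15* itself read 8.25 and 8.26 in the *Gata4* floxed hearts and 8.43 to 8.57 in the *Gata4*-deleted hearts (0.24, adjusted p = 0.590). It read 8.80 and 8.36 in the cre hearts, 8.35 and 8.32 in the *Gata6* floxed hearts and 8.11 to 8.19 in the *Gata6*-deleted hearts. The part of the clock genes in the differences of the 8 genes was not tested.

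The cre hearts, whose clock genes were like those of the deleted hearts, gave a second control. Against them the *Gata4*-deleted hearts differed by -0.50 in *Irx3*, -0.23 in *Irx4*, -0.35 in *Irx5*, -0.64 in *Kcnd3* (adjusted p = 0.0939) and -0.50 in *Kcnip2*, and by 0.29 in *Hey1*. These values are close to those against the floxed line, although both contrasts share the 3 deleted hearts. *Kcnd2* and *Hey2* had another sign than against the floxed line, at -0.15 and 0.28 against cre hearts. Against cre hearts 0 of the 8 genes passed (0.391% of all probesets did) and 6 had an unadjusted p under 0.05 (10.9% of all probesets).

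The *Gata4*-deleted hearts differed from the *Gata4* floxed hearts in other genes of the heart as well. Of 8 cardiac stress genes, 5 read higher and 3 lower (median 0.11), and 2 passed. *Myh7*, the slow myosin heavy chain, was higher by 2.83 (SE 0.37, adjusted p = 0.0203) and *Fhl1*, a LIM domain protein of the sarcomere, by 1.32 (SE 0.18, adjusted p = 0.0287). All 10 macrophage markers read lower, with a median of -0.49 and none past the threshold, and their mean log2 signal was 6.94 to 6.99 in the *Gata4*-deleted hearts and 7.12 to 7.46 in the others. The 10 cardiomyocyte markers had a median of -0.04 and none past the threshold. Of the atrial myocyte markers, 10 of 12 read lower (median -0.28), and of the fibroblast markers 8 of 10 (median -0.20). None of these passed, nor did markers of endothelium, smooth muscle, conduction cells, neurons and skeletal muscle, whose medians lay between -0.07 and 0.07. Their part in the differences of the 8 genes was not tested.

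The second comparison set *Gata6*-deleted hearts against the *Gata6* floxed line. The 2 genes with the lowest values were *Kcnd2* at -0.39 (SE 0.13, adjusted p = 0.913) and *Hey2* at -0.36 (SE 0.13, adjusted p = 0.980). *Irx5* read 0.29 higher, with an interval from 0.006 to 0.58 (adjusted p = 0.999), and *Irx3* 0.17 and *Hey1* 0.15 higher. *Kcnip2* gave -0.02 with an interval from -0.36 to 0.31, *Irx4* -0.11 and *Kcnd3* -0.21. None of the 8 genes passed, and neither did any other probeset (0%). There were 3 of the 8 genes at an unadjusted p under 0.05, against 4.91% of all probesets, and 3 whose deleted and floxed hearts did not overlap, against 19.1%.

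Against cre hearts, the *Gata6*-deleted hearts gave -0.57 for *Kcnd2* (adjusted p = 0.131), -0.51 for *Hey2* (adjusted p = 0.180), -0.49 for *Kcnd3* and 0.37 for *Irx5*. *Kcnip2* gave 0.30 here and thus had another sign than against the floxed line. None of the 8 genes passed (0.515% of all probesets did), and 4 had an unadjusted p under 0.05 (10.5% of all probesets). Against the *Gata6* floxed line, 10 of 10 fibroblast markers (median 0.23), 5 of 5 smooth muscle markers (median 0.41) and 7 of 8 cardiac stress genes (median 0.36) read higher with *Gata6* deletion, among them *Myh7* at 1.45 (adjusted p = 0.631), and none passed. Their part in the differences of the 8 genes was not tested.

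Whether the deletions differed in their effect was tested as the difference between both changes, each against its own floxed line. The largest values were -0.68 for *Irx5* (SE 0.18, adjusted p = 0.598), -0.58 for *Irx3* (SE 0.16, adjusted p = 0.647), 0.54 for *Kcnd2* (SE 0.18, adjusted p = 0.699) and -0.53 for *Kcnip2* (SE 0.21, adjusted p = 0.776). *Irx5*, *Irx3* and *Kcnip2* were thus lower and *Kcnd2* higher after *Gata4* deletion relative to *Gata6* deletion in these hearts, by amounts that did not pass. In the same contrast 9 of 10 macrophage markers (median -0.47), 9 of 10 fibroblast markers (median -0.41) and 4 of 5 smooth muscle markers (median -0.51) were lower, and none passed. In *Gata4* floxed against *Gata6* floxed hearts, 9 of 10 fibroblast markers (median 0.37) and 4 of 5 smooth muscle markers (median 0.38) were higher. Macrophage markers had a median of 0.11 there. *Gata4*-deleted minus *Gata6*-deleted hearts gave medians of -0.05, -0.11 and -0.28 for fibroblast, smooth muscle and macrophage markers. The part of these markers was not tested. In the difference between both changes, *Hey2* gave 0.29 with an interval from -0.12 to 0.70. None of the 8 genes passed, against 0.0169% of all probesets, and 4 had an unadjusted p under 0.05, against 6.25% of all probesets.

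The direct comparison of *Gata4*-deleted with *Gata6*-deleted hearts gave the only calls among the 8 genes in the comparisons run. *Hey2* had more signal after *Gata4* deletion than after *Gata6* deletion, at 6.31 ± 0.26 against 5.52 ± 0.09 (SD, n = 3 each), a difference of 0.79 (SE 0.12, adjusted p = 0.0130, 1.73-fold). *Kcnip2* was lower, at 9.09 ± 0.05 against 9.90 ± 0.25 (SD, n = 3 each), a difference of -0.80 (SE 0.13, adjusted p = 0.0246, 1.75-fold). *Irx5* was lower as well, at 5.90 ± 0.07 against 6.62 ± 0.14 (SD, n = 3 each), a difference of -0.72 (SE 0.11, adjusted p = 0.0195, 1.64-fold). The study lists these 3 genes among those it chose from the same arrays, so the calls are not independent evidence of a direction. The study's quantitative PCR of heart RNA covered *Irx5* and *Hey2* but not *Kcnip2*. There, *Irx5* read above its floxed control with *Gata4* deletion and *Hey2* with both deletions, unlike the array values against the floxed lines. By that measure *Irx5* was still lower, and *Hey2* higher, with *Gata4* than with *Gata6* deletion. Of all probesets, 0.394% passed as higher and 0.686% as lower, against 1 and 2 of the 8 genes.

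The other genes did not pass in that comparison, with -0.42 for *Irx3* (adjusted p = 0.113), 0.42 for *Kcnd2* (adjusted p = 0.159), -0.18 for *Irx4* (adjusted p = 0.423), -0.15 for *Kcnd3* (adjusted p = 0.713) and 0.08 for *Hey1* (adjusted p = 0.786). *Kcnd2* and *Kcnip2*, whose proteins form 1 channel complex, thus lay on opposite sides of 0, and *Kcnd3* and *Hey1* had intervals from -0.41 to 0.12 and from -0.11 to 0.28. The deleted hearts did not overlap in 6 of the 8 genes, against 18.1% of all probesets. The macrophage marker *Adgre1* was lower (-0.76, adjusted p = 0.0404), the T-type calcium channel gene *Cacna1g*, on the conduction list, higher (1.06, adjusted p = 0.00238) and *Fhl1* higher (1.12, adjusted p = 0.0129) in *Gata4*-deleted hearts, and none of the 16 clock genes passed. *Cacna1g* also differed between the floxed lines (0.89, adjusted p = 0.0320). Between the deleted hearts, 3 of the 8 cardiac stress genes read higher and 5 lower after *Gata4* deletion (median -0.14). The part of these genes in the calls was not tested.

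**Figure D3:**
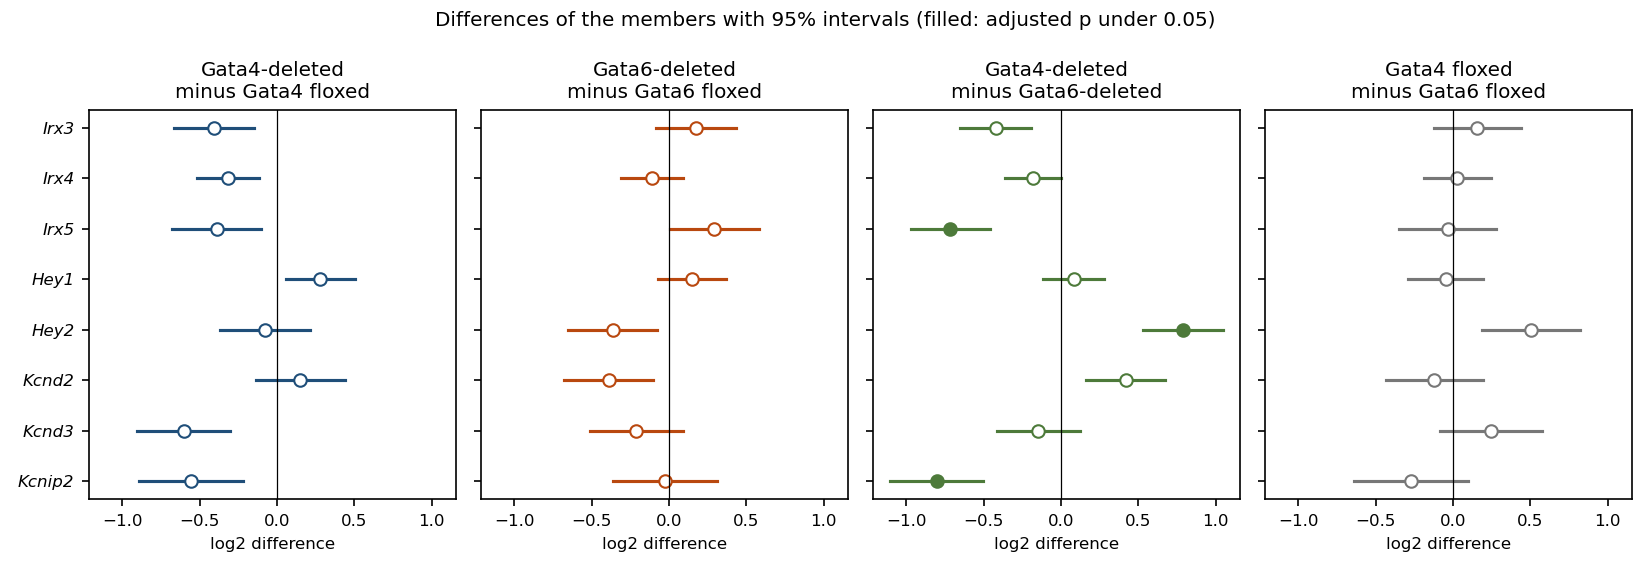
Log2 difference of each gene (rows) in 4 comparisons (panels), as the limma estimate with its 95% interval, filled where the adjusted p was under 0.05. The filled points are *Irx5*, *Hey2* and *Kcnip2* in the panel that sets both deletions against each other, and the last panel shows that *Hey2* already differed by 0.50 between the floxed lines, without passing.

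A direct comparison of deleted hearts holds the difference between the lines as well as that between the deletions. *Gata4* floxed and *Gata6* floxed hearts differed by 0.50 in *Hey2* (SE 0.14, adjusted p = 0.238), by -0.27 in *Kcnip2* (SE 0.17, adjusted p = 0.620) and by -0.03 in *Irx5* (SE 0.14, adjusted p = 0.966). The 0.79 in *Hey2* thus stood beside 0.50 in the same direction between hearts without a deletion, whereas for *Irx5* the floxed lines differed by less than their spread. None of the 8 genes passed between the floxed lines (0.228% of all probesets did), and only *Hey2* had an unadjusted p under 0.05 (10.3% of all probesets). Cre hearts set against the mean of both floxed lines gave values between -0.19 for *Kcnip2* and 0.24 for *Kcnd2*. There, 0 of the 8 genes passed (0.0956% of all probesets) and 0 had an unadjusted p under 0.05 (8.33% of all probesets).

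The sizes of the 3 differences held without any single heart, at -0.77 to -0.64 for *Irx5*, -0.91 to -0.67 for *Kcnip2* and 0.65 to 0.90 for *Hey2*, whereas the calls depended on single deleted hearts. Only *Hey2* passed without *Gata4*-deleted heart 1, 2 or 3 (adjusted p = 0.0467, 0.0210 and 0.0163) or without *Gata6*-deleted heart 1 (adjusted p = 0.0435). Without *Gata6*-deleted heart 2, *Hey2* (adjusted p = 0.0446) and *Kcnip2* (adjusted p = 0.0385) passed, and without *Gata6*-deleted heart 3, which had the highest *Irx5* and *Kcnip2* and the lowest *Hey2*, none did (adjusted p = 0.0831 for *Irx5*, 0.0641 for *Kcnip2* and 0.0624 for *Hey2*). The adjusted p of *Irx5* was 0.0502 to 0.0911 and that of *Kcnip2* 0.0385 to 0.103 over these 6 fits, and all 3 genes passed without any single cre or floxed heart. When only the 6 deleted hearts were fitted, the differences were the same by construction and none passed (adjusted p = 0.0515 for *Irx5*, 0.0845 for *Hey2* and 0.0716 for *Kcnip2*).

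*Irx5* and *Kcnip2* also moved together among hearts of the same genotype. Within the 5 groups there are 9 pairs of hearts, and the heart with more *Irx5* had more *Kcnip2* in 8 of the 9 pairs. The same count, 8 of 9, held for *Irx4* and *Kcnip2*, and *Irx4* and *Irx5* had the same order in 7 of 9. *Kcnd2*, which *Irx5* represses in the mouse ventricle, was lower in the heart with more *Irx5* in 6 of 9 pairs, and *Kcnd2* and *Kcnip2* ran in opposite order in 7 of 9. By size, with the group means taken out, Pearson's r was 0.81 for *Irx5* with *Kcnip2*. It was only 0.28 for *Irx4* with *Kcnip2* and -0.15 for *Irx4* with *Irx5*. For *Irx5* with *Kcnd2* it was -0.78, and for *Kcnd2* with *Kcnip2* -0.95. These pairs of genes were picked with their values in view, the counts of same order ran from 1 to 8 of 9 over all pairs of the 8 genes, they take no account of size, and pairs within a group of 3 share hearts.

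**Figure D4:**
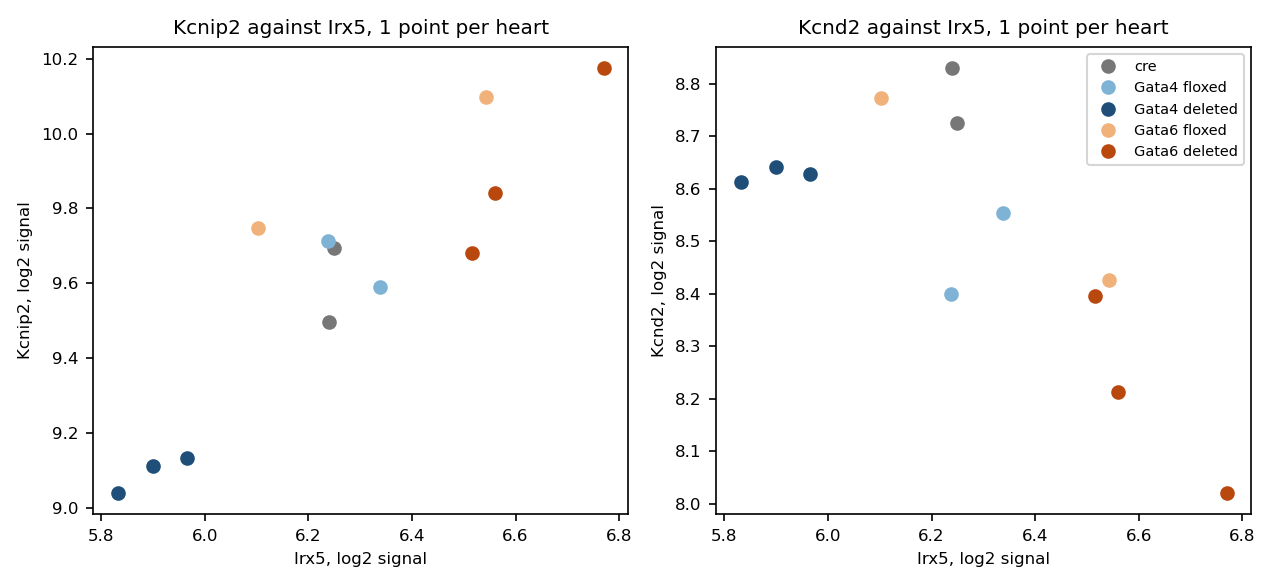
Log2 signal of *Kcnip2* (left) and *Kcnd2* (right) against that of *Irx5*, with 1 point per heart coloured by group. The *Gata4*-deleted hearts sit at the lower left of the *Kcnip2* panel, and the *Gata6*-deleted heart with the highest *Irx5* (6.77) has the highest *Kcnip2* (10.17) and the lowest *Kcnd2* (8.02).

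Relatives and partners of the 8 genes mostly did not pass. The other Iroquois genes *Irx1*, *Irx2* and *Irx6* passed in none of the 6 comparisons, with -0.0002, -0.09 and 0.24 in *Gata4*-deleted against *Gata4* floxed hearts. Of 15 genes of the Notch pathway, which drives *Hey* genes, none passed, and *Hes1*, another Notch-responsive repressor, gave 0.41 (adjusted p = 0.369) and *Lfng*, which glycosylates Notch, 0.28 (adjusted p = 0.426) in that comparison. Of 13 other subunits of transient outward or Kv4 channels, none passed. There the accessory subunit *Kcne1* gave -0.66 (adjusted p = 0.428) and *Kcnip3* 0.29 (adjusted p = 0.563) with *Gata4* deletion. *Kcne1* gave 0.58 in *Gata4* floxed minus *Gata6* floxed hearts (adjusted p = 0.516) and 0.11 between the deleted hearts (adjusted p = 0.902). By the study's quantitative PCR, *Kcne1* was far below its floxed control with *Gata6* deletion and near it with *Gata4* deletion. *Kcna4*, the pore of the slow component, gave -0.42 (adjusted p = 0.346) in *Gata4*-deleted minus *Gata6*-deleted hearts, beside -0.34 between the floxed lines and -0.08 for the difference between both changes.

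Of 14 other repolarizing potassium channel genes measured, none passed with either deletion. *Kcna5*, which carries an ultrarapid current in the mouse, gave 0.57 (adjusted p = 0.188) with *Gata4* deletion. Beside this, *Kcna5* gave -0.52 in *Gata4* floxed minus *Gata6* floxed hearts (adjusted p = 0.263) and 0.55 in cre against floxed hearts (adjusted p = 0.304). Between the deleted hearts it gave -0.02 (adjusted p = 0.977). *Kcnq1* gave -0.30 (adjusted p = 0.272) with *Gata4* deletion, and *Kcnj3*, of the acetylcholine-gated channel, -0.52 (adjusted p = 0.753) with *Gata6* deletion. The 1 call was *Kcnj11*, the pore of the ATP-sensitive channel, which was lower in cre than in floxed hearts by -0.88 (SE 0.09, adjusted p = 0.0144). Of 15 partner transcription factors none passed in any comparison, with 0.38 for *Zfpm2*, a GATA cofactor (adjusted p = 0.0870), in *Gata4*-deleted minus *Gata6*-deleted hearts and 0.37 for *Hand1* (adjusted p = 0.410) with *Gata4* deletion. The median difference in *Gata4*-deleted against *Gata4* floxed hearts was -0.39 over the 3 Iroquois factors studied here, and 0.03 over the 13 other transient outward subunits and -0.08 over the 14 other potassium channels. The 13 subunits were dim, with a mean log2 signal of 4.77 to 4.90 per heart, below the median of all probesets (5.63). The 14 channels had 7.30 to 7.41, and *Kcnd2*, *Kcnd3* and *Kcnip2* together 7.97 to 8.43. The part of signal level in these medians was not tested.

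The pattern of each gene was set against the 11356 genes at or above the median signal, by Pearson's r over the 12 hearts, which share genotypes in groups. Most like *Hey2* were *Gsta4* (r = 0.966), a glutathione transferase, and *Smad3* (r = 0.944), a mediator of TGF-β signalling. Most like *Kcnip2* were *Paqr9* (r = 0.946) and *Crip2* (r = 0.939), and most like *Irx5* were *Prkcb* (r = 0.902), a protein kinase C, and *Dpp7* (r = 0.888). *Kcnd3* was matched best by *Dhrs11* (r = 0.959) and *Ivd* (r = 0.941), *Irx4* by *Clasp1* (r = 0.951) and *Gpr107* (r = 0.923), and *Kcnd2* by *Abcc4* (r = 0.903) and *Mylip* (r = 0.880). *Irx3* had *Polr3a* (r = 0.895) and *Cd37* (r = 0.894), and *Hey1* had *Atpif1* (r = 0.912) and *Dzip1l* (r = 0.877). These are the 2 highest r of 11356 for each gene over only 12 hearts, so high values arise by selection and were not tested. With the group means taken out, r of the same pairs lay between 0.67 (*Hey2* with *Gsta4*) and 0.89 (*Irx4* with *Clasp1*).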

How the data were processed

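Heart RNA was hybridised to Affymetrix mouse gene ST arrays, and the authors deposited log2 signals made by RMA (background correction, normalization and summary per probeset), whose version, annotation and build are not given in the sources used here. RMA draws arrays to a common distribution, so only relative differences remain. A table of ratios with 12 columns that no label pairs with a heart was not used. Symbols came from the platform's probe table (1621 probesets had several symbols and 12147 were not listed). A group-means model of the 12 arrays was fitted with limma 3.58.1 in R 4.3.3 (7 residual and 2.50 prior degrees of freedom), tests were two-sided, and p was adjusted by Benjamini-Hochberg over 35557 probesets. An exact test of 1 gene over 3 against 3 deleted hearts could not go below p = 0.1. Its floor is higher for 3 deleted against 2 floxed hearts, and the number of arrays limits the precision. All 8 genes were named, and of each other list the members that passed (at most 2 at each end) or the 2 with the smallest p. *Per1* and *Klf15* were added after their values were seen. The genes and lists were chosen with earlier results of these data known. The model was tested on simulated data. Alternatives were other normalizations, filters, priors, controls and thresholds, the replicate number as a block, leaving out each heart and the methods' t-test.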

Additional observations from a re-analysis of the deposited data

How the results depend on the processing

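Of the 48 differences (8 genes in 6 comparisons), the 3 calls kept their direction in every alternative that gave them a value. Of 944 values under alternatives, 905 kept direction and side of the threshold, 15 fell short of it, 2 passed it and 22 had another sign, all of these from differences under 0.3 in size. In *Gata4*-deleted against *Gata6*-deleted hearts, 3 of 8 genes passed, but 0 at an adjusted p under 0.01, 0 when only these groups were fitted, 0 by the methods' test after Benjamini-Hochberg and 6 by it at an unadjusted p under 0.05, and 0 to 3 when each heart was left out. By the methods' test at an unadjusted p under 0.05 there were 5 with *Gata4* deletion, 1 with *Gata6* deletion and 1 between the floxed lines, where 0 had passed. Leaving out probesets whose group means were all under 6 gave 1 (*Kcnd3*) with *Gata4* deletion and added *Irx3* (adjusted p = 0.0432) between the deleted hearts. That fit tested fewer probesets and estimated its prior anew, and the part of each was not tested. With the replicate number as a block, 3 of 8 genes passed between the deleted hearts (adjusted p = 0.0306 for *Irx5*, 0.0157 for *Hey2* and 0.0429 for *Kcnip2*) and no other call differed. The log2 difference of *Hey2* with *Gata4* deletion was 0.0049 in that fit, against -0.08 in the main fit, and passed in neither. Hearts of the same number did not deviate together (correlations of -0.10 to 0.11 over 21 pairs). Deviations within a group of 2 hearts mirror each other and groups are small, so pairing by number is not excluded. With cre hearts as the control, *Hey2* was 0.28 and *Kcnd2* -0.15 with *Gata4* deletion, and *Irx3* was -0.075 and *Kcnip2* 0.30 with *Gata6* deletion. With cre and floxed hearts together as the control, *Hey2* was 0.10 and *Kcnd2* -3.58e-06 with *Gata4* deletion and *Kcnip2* 0.14 with *Gata6* deletion. Leaving out each heart gave -0.21 to 0.037 for *Hey2* with *Gata4* deletion and -0.20 to 0.15 for *Kcnip2* with *Gata6* deletion. Between the floxed lines it gave -0.00059 to 0.31 for *Irx3*, -0.062 to 0.12 for *Irx4*, -0.25 to 0.19 for *Irx5*, -0.16 to 0.065 for *Hey1* and -0.30 to 0.051 for *Kcnd2*. Between cre and floxed hearts it gave -0.17 to 0.013 for *Irx4*, -0.17 to 0.050 for *Irx5* and -0.10 to 0.025 for *Hey1*. The cause of these shifts was not tested. With 2 or 3 hearts a group, a difference that missed the threshold is not shown to be absent.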
